A study of Rattus norvegicus with 16 samples.

Results

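The 8 genes described here belong to bone morphogenetic protein (BMP) and activin signalling and were followed through single-cell RNA-seq of the rat intervertebral disc (IVD): the ligand genes Bmp2, Bmp4, Gdf5 and Inhba, and the genes of the extracellular modulators Grem1, Chrdl2, Fst and Smoc2. These 8 genes were chosen from results of these same data, namely their levels across cell classes and subclusters and their differences between injured and uninjured discs, so those values are given as description without a test. All 8 were listed in all 16 libraries, among 13596 genes listed in every library. The rats were male Sprague-Dawley animals operated on at 8 weeks of age, and their lower lumbar discs were stabbed once with a needle (lumbar disc puncture, LDP). Each of the 8 rats gave 1 LDP library from its pooled injured discs and 1 control library (CON) from its pooled uninjured discs at higher lumbar levels. Tissue of rats 1 to 4 was taken 2 weeks after the operation and that of rats 5 to 8 after 8 weeks. The CON discs therefore came from operated animals, and no unoperated rat was included.

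BMPs and growth differentiation factors such as Gdf5 bind type I and type II serine/threonine kinase receptors and act through SMAD1, SMAD5 and SMAD9, whereas activins, which are dimers of inhibin beta chains such as the one encoded by Inhba, act through SMAD2 and SMAD3. Secreted antagonists hold these ligands away from their receptors. Gremlin 1 (Grem1) binds chiefly BMP2, BMP4 and BMP7, chordin-like 2 (Chrdl2) belongs to the chordin family, and follistatin (Fst) binds activins with high affinity. Smoc2 encodes a matricellular calcium-binding protein related to a BMP antagonist. Bmp2 and Gdf5 are known for their roles in cartilage and joint formation.

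The 16 libraries held 149272 cells, between 2221 and 15918 each, with a median of 3861 to 8092 unique molecular identifiers (UMIs, 1 per captured RNA molecule) per cell. The deposited class of IVD cells held 127077 of them, from 1313 cells in LDP6 to 14252. At 2 weeks the IVD class was divided by the authors into cells of the outer annulus fibrosus (OAF), the inner annulus (IAF) and the nucleus pulposus (NP), and at 8 weeks no subclusters were given. In OAF cells the summed level of Col1a1, Lum, Igfbp5, Igfbp6, Myoc and Fibin was 42320 to 77510 CPM (a cell's UMI counts scaled to a total of 1000000). It was 2084 to 9751 CPM in IAF and 2260 to 5291 CPM in NP. The authors named OAF cells by these genes apart from Col1a1, so the sum does not test the name. OAF cells of LDP also held markers of mural and Schwann cells, as given below. NP and IAF were weakly separated: Col1a1 was lower in NP than in IAF in all 4 CON libraries and higher in NP than in IAF in all 4 LDP libraries. Library medians of UMIs per cell were 6997 to 8544 in NP and 2442 to 3789 in IAF of CON. In LDP they were 7894 to 10580 in NP and 4100 to 6403 in IAF, the same order. By Col1a1 the names NP and IAF could be exchanged in LDP, and a difference between them should be read with that limit. Any 2 libraries shared 0 to 75 cell barcodes. Levels below are means over cells of CPM from 3′ UMI counts, in which 1 molecule gives 1 count whatever its length.

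Of the 8 genes, 3 (Grem1, Inhba and Bmp4) had an entry in the promoter table of RefSeq (build GRCr8, which is not the build of the measured data). The 250 bases before the start of Grem1 and of Bmp4 are shown because Grem1 was higher in NP than in OAF cells and Bmp4 lower, as described next. Capitals mark the SMAD-binding letters found, GGCGCC in Grem1 and CAGACA, read on the other strand, in Bmp4.
Grem1, chr3:120978320-120978569, minus strand: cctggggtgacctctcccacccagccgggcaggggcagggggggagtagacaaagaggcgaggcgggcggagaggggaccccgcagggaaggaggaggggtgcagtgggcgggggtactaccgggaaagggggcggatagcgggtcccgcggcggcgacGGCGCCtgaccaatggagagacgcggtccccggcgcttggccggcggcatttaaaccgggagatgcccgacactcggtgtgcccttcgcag
Bmp4, chr15:22101934-22102183, minus strand: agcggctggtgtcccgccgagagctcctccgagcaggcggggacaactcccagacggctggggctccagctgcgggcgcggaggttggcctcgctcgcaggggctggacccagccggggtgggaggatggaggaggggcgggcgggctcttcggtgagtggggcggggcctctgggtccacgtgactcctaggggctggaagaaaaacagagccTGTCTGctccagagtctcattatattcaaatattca
GGCGCC was present on either strand in 8.69% of 33469 promoters of this length and CAGACA in 17.2%. Of the other letters searched on both strands, GGGCGG was in both of these promoters and in 30.5% of all, ACAAAG was in Grem1 and Inhba and in 16.3%, CAGCTG was in Bmp4 and in 11.97%, and TATAAA was in Inhba and in 12.9%. TGANTCA, found in 6.34% of promoters, and GTCTAGAC, found in 0.173%, were in none of the 3. The 2 printed stretches are 72% and 66.4% G or C, against 43.6% for Inhba.

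Over the IVD class of CON at 2 weeks Grem1 was the most abundant of the 8 genes, at 792 ± 317 CPM, followed by Inhba at 336 ± 72.6, Smoc2 at 282 ± 69.1 and Bmp2 at 213 ± 43.6 CPM (SD, n = 4). Inhba and Smoc2 overlapped between libraries, as did Smoc2 and Bmp2. Chrdl2, at 16.1 ± 8.27 CPM, and Bmp4, Fst and Gdf5, at 5.30 ± 2.27, 4.42 ± 2.18 and 2.48 ± 0.867 CPM, were far lower, and each of these overlapped with the next.

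Within the IVD class at 2 weeks, the 8 genes apart from Inhba fell into an NP and IAF set and an OAF set. These levels helped to choose the genes, and the share of all genes with such directions was not counted. Grem1, Chrdl2, Smoc2, Bmp2 and Gdf5 were higher in NP than in OAF and higher in IAF than in OAF in 8 of 8 libraries, and Bmp4 was lower in both than in OAF in 8 of 8, as was Fst.

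Grem1 had the widest distance. In NP cells it was at 1360, 625, 672 and 1208 CPM in CON libraries 1 to 4 and at 2105, 1580, 1107 and 1498 CPM in LDP libraries 1 to 4. In OAF cells the same libraries held 42.3, 4.51, 24.9 and 55.9 CPM in CON and 46.7, 54.6, 22.8 and 46.6 CPM in LDP. NP exceeded OAF by 5.22 on the log2(CPM + 1) scale on average, with a range over the 8 libraries of 4.41 to 6.83. These OAF levels overlapped those of endothelial cells, where Grem1 was at 42.1 ± 31.7 CPM in CON and 59.0 ± 26.3 CPM in LDP (SD, n = 4).

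The corresponding NP excess over OAF was 3.69 for Chrdl2, 3.52 for Smoc2, 2.04 for Bmp2 and 1.39 for Gdf5. Inhba, the activin subunit gene, was the least divided of the genes higher in NP, with an excess of 1.15 that was above 0 in 7 of 8 libraries. It stood at 229 ± 50.3 CPM in CON OAF cells, where Grem1 was at 31.9 ± 22.2 CPM (SD, n = 4). Grem1, Inhba and Smoc2 were higher in NP than in IAF in 8 of 8 libraries, by 0.29, 0.43 and 0.28 on the log2 scale, while Chrdl2 was higher in 4 of 8. If the names were exchanged in LDP, the first 3 genes would be higher in NP in 4 of 8.

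Bmp4 in OAF cells was at 35.2, 13.9, 23.5 and 46.7 CPM in CON and at 9.08, 15.97, 10.9 and 19.3 CPM in LDP. In NP cells it did not pass 2.10 CPM in any library. Although OAF cells were 11.8% of the CON IVD class on average, they held 68.5% of its Bmp4 UMIs (range over libraries 50.8% to 90.2%). Fst in OAF cells was at 15.4, 13.2, 14.6 and 19.5 CPM in CON, whereas NP cells were between 0.974 and 1.82 CPM.

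**Figure D1:**
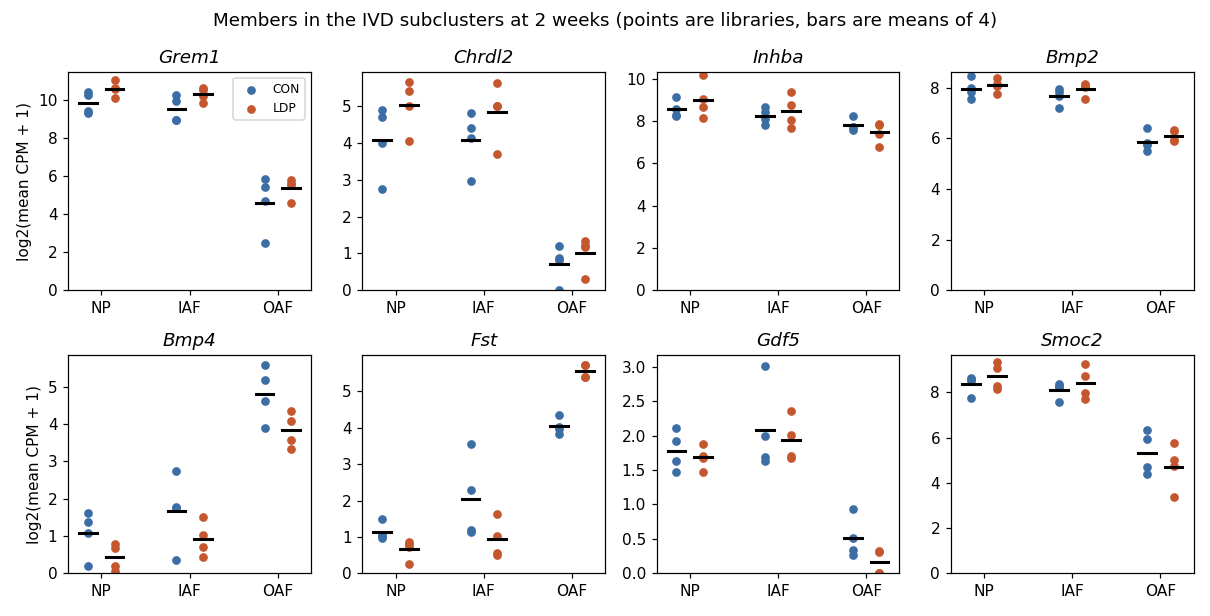
Levels of the 8 genes in NP, IAF and OAF cells at 2 weeks, as log2(mean CPM + 1) on the vertical axis; each point is a library (CON blue, LDP orange) and each bar the mean of 4. Grem1, Chrdl2, Smoc2, Bmp2 and Gdf5 were higher in NP and IAF than in OAF in 8 of 8 libraries, and Bmp4 and Fst were lower.

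Across the classes at 2 weeks, Grem1, Chrdl2, Inhba, Bmp2, Gdf5 and Smoc2 had on average 96.2% to 99.8% of their UMIs in IVD cells in CON libraries, where IVD cells were 87.5% of cells. Bmp2 and Inhba were also high per cell in the unnamed class of CON, at 110, 304, 209 and 174 CPM for Bmp2 and 305, 331, 253 and 147 CPM for Inhba in libraries 1 to 4, and overlapped with IVD cells there. Of Bmp4 and Fst UMIs, IVD cells held 38.5% and 30.7%. Endothelial cells, 7.56% of CON cells, held 55.9% of the Bmp4 UMIs, and Bmp4 was at 203, 166, 139 and 151 CPM there in CON and at 90.9, 153, 122 and 177 CPM in LDP. At 1000 UMIs per cell, 12.6% ± 1.71 of endothelial cells in CON had a Bmp4 UMI against 0.489% ± 0.173 of IVD cells (SD, n = 4). Without thinning these shares were 22.4% and 1.61%. At 8 weeks no class was named endothelial in CON, and there the unnamed class held Bmp4 at 41.4 to 154 CPM together with a summed level of 881 to 1889 CPM of the endothelial markers Cdh5, Emcn, Vwf, Kdr and Tie1. In the unnamed class of LDP at 8 weeks these markers summed to 13.9 to 118 CPM and Bmp4 was at or below 0.261 CPM.

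Fst was highest in the unnamed class of CON at 2 weeks, at 190, 316, 116 and 577 CPM in libraries 1 to 4. This class was 3.61% of cells and held 66.9% of Fst UMIs. The unnamed class of LDP at 2 weeks was at 37.8, 27.0, 13.7 and 0.945 CPM, so the groups did not overlap. The share of all genes with this pattern in the unnamed class was not counted. The cells in the class were not alike, however: the mural markers Acta2, Myh11, Rgs5, Tagln and Cnn1 summed to 2767 to 6126 CPM in the unnamed class of CON and to 35.4 to 702 CPM in that of LDP, and the classes were drawn in each group separately. The Schwann cell marker Mbp was at 55.2 to 214 CPM and 6.88 to 44.0 CPM there, and Sox10 at 16.1 to 53.0 CPM and 0 to 11.5 CPM. Some myeloid libraries also held Fst, up to 173 CPM in LDP3.

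**Figure D2:**
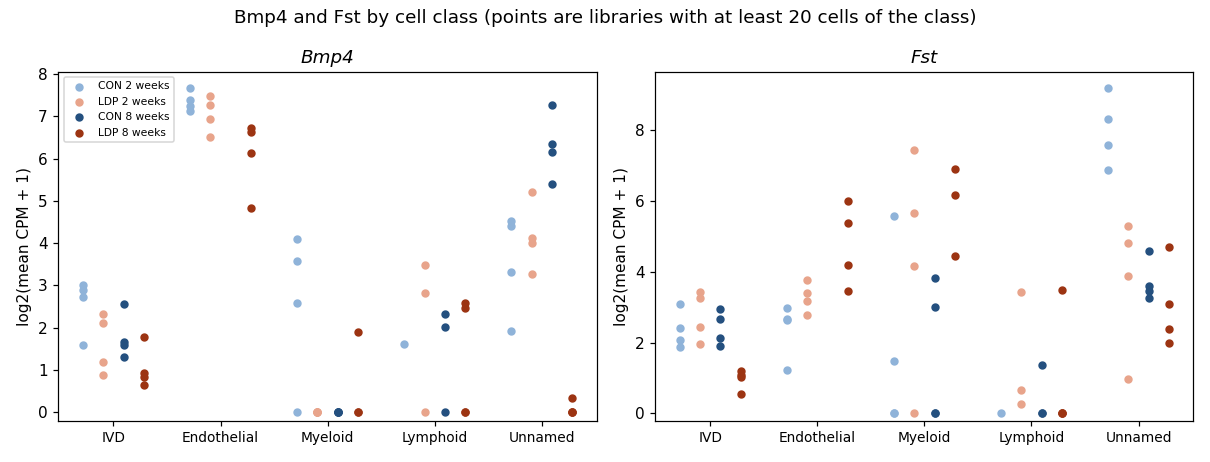
Bmp4 (left) and Fst (right) in each cell class as log2(mean CPM + 1); each point is a library with at least 20 cells of the class, coloured by group. Bmp4 was highest in endothelial cells, and in the unnamed class of CON at 8 weeks, where no endothelial class was named; Fst was highest in the unnamed class of CON at 2 weeks.

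The question of the study was how disc puncture changes the cells of the same rat's discs. In every rat the LDP discs came from lower lumbar levels than the CON discs. Puncture and disc level therefore cannot be told apart in any difference between LDP and CON. In IVD class cells, both BMP antagonist genes Grem1 and Chrdl2 were higher in the LDP library than in the CON library of the same rat in 8 of 8 rats. Over all cells of the library Chrdl2 was higher in 8 of 8 and Grem1 in 7 of 8, with rat 4 at -0.06 on the log2 scale. Of all 11150 genes tested, 3.59% had this pattern, 8.53% were higher in 4 of 4 rats at 2 weeks and 7.72% at 8 weeks. None of the 8 genes was lower in 8 of 8 rats, a pattern of 8.3% of genes, or lower in 4 of 4 at 2 weeks, a pattern of 14.1%. At 2 weeks the groups overlapped for each of the 8 genes, whereas 2.74% of genes were higher and 4.42% lower in LDP without overlap. Since the contrast served to choose the genes, nothing is read from these counts.

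Grem1 was at 1107, 519, 519 and 1023 CPM in CON and at 1776, 1286, 914 and 1149 CPM in LDP at 2 weeks. At 8 weeks it was at 208, 325, 477 and 273 CPM in CON and at 670, 620, 708 and 786 CPM in LDP. The groups overlapped at 2 weeks and were apart at 8 weeks, which held for 2.52% of genes in this direction. With all cells of the library the groups overlapped at 8 weeks too, at 171 to 462 CPM in CON and 369 to 750 CPM in LDP. At 8 weeks, where no subclusters were given, the NP markers Cd24, Krt8, Krt18 and Krt19 summed to 349 to 401 CPM in IVD cells of CON and to 482 to 499 CPM in those of LDP, and the outer annulus markers to 2388 to 4268 CPM and 1012 to 2751 CPM. Their part in the differences of Grem1, Chrdl2 and Smoc2 at 8 weeks was not tested. The within-rat log2 change was 0.74 ± 0.21 at 2 weeks and 1.18 ± 0.21 at 8 weeks (SE of the limma fit, n = 4 rats). The share of IVD cells with a Grem1 UMI, at 1000 UMIs per cell, was 34.2% ± 7.68 in CON and 46.5% ± 6.95 in LDP at 2 weeks, and 18.8% ± 4.73 and 34.0% ± 2.58 at 8 weeks (SD, n = 4). Over all UMIs these shares were 56.6%, 67.7%, 42.4% and 62.4%. In endothelial cells the thinned share was 3.77% in CON and 5.604% in LDP at 2 weeks, against medians of 1685 to 3511 UMIs per cell in CON.

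Chrdl2 was at 22.6, 13.1, 5.81 and 23.0 CPM in CON and at 34.9, 26.2, 12.4 and 41.6 CPM in LDP at 2 weeks, and at 3.49, 7.89, 6.87 and 6.15 CPM against 6.27, 12.6, 14.0 and 20.8 CPM at 8 weeks. The groups overlapped at both times, although each rat's LDP library was the higher. The log2 change was 0.84 ± 0.17 and 0.96 ± 0.17 (SE of the limma fit, n = 4 rats). Within NP cells at 2 weeks it was 0.95 and within IAF cells 0.76, and for Grem1 these were 0.75 and 0.78, with all 4 rats higher in each, a direction seen in 12.5% of 10817 genes in NP and 6.67% of 10969 in IAF. If the names NP and IAF were exchanged in LDP, Grem1 would be 0.47 ± 0.28 from CON NP, higher in 3 of 4 rats, and 1.05 ± 0.25 from CON IAF, higher in 4 of 4 (SE, n = 4 rats). For Chrdl2 these would be 0.75 ± 0.17 and 0.96 ± 0.14, higher in 4 of 4 in each. Without IVD cells bearing a UMI of the mural markers, the changes were 0.74 and 1.14 for Grem1 and 0.81 and 0.95 for Chrdl2 at 2 and 8 weeks.

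Smoc2 was higher in LDP in 3 of 4 rats at 2 weeks and in 4 of 4 at 8 weeks. At 8 weeks it was at 213, 229, 341 and 314 CPM in CON and at 407, 366, 413 and 609 CPM in LDP, again with no overlap of the groups, beside the NP and outer annulus markers given for Grem1. With all cells averaged it was at 166 to 330 CPM and 218 to 580 CPM at 8 weeks, with overlap, and was higher in LDP in 2 of 4 rats at 2 weeks. Its log2 change was 0.30 ± 0.20 at 2 weeks and 0.71 ± 0.20 at 8 weeks (SE of the limma fit, n = 4 rats). The change at 2 weeks was 0.18 without rat 1, 0.14 without rat 2 and 0.56 without rat 4. Within NP and IAF cells at 2 weeks Smoc2 changed by 0.34 and 0.30, higher in 3 of 4 rats in each. Within OAF cells it changed by -0.62, lower in 3 of 4 rats. If the names NP and IAF were exchanged in LDP, the change would be 0.04 from CON NP and 0.61 from CON IAF.

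Among the ligand genes, Inhba was at 431, 355, 282 and 276 CPM in CON and at 916, 438, 315 and 224 CPM in LDP at 2 weeks, and at 254, 426, 415 and 288 CPM against 297, 396, 990 and 481 CPM at 8 weeks. It was higher in LDP in 3 of 4 rats at each time, by 0.31 ± 0.24 and 0.53 ± 0.24 on the log2 scale (SE of the limma fit, n = 4 rats). The highest value in LDP came from 1 library each time, LDP1 and LDP7. Without rat 1 the change at 2 weeks was 0.05, and without rat 7 that at 8 weeks was 0.28. Bmp2, at 154 to 324 CPM over the 16 libraries, was higher in LDP in 2 of 4 rats at 2 weeks and 3 of 4 at 8 weeks. Its log2 changes were 0.17 ± 0.23 and -0.13 ± 0.23 (SE of the limma fit, n = 4 rats). The negative mean at 8 weeks came from rat 5, at -1.07, and was 0.18 without it. At 2 weeks the mean was -0.0047 without rat 4. Gdf5 was low throughout, from 0.599 to 3.63 CPM, and lower in LDP in 4 of 4 rats at 8 weeks, a direction seen in 26.3% of genes.

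Bmp4 in IVD cells was lower in LDP in 3 of 4 rats at each time, at 7.11, 2.01, 5.66 and 6.43 CPM in CON against 0.836, 3.33, 1.26 and 3.99 CPM in LDP at 2 weeks. At 8 weeks the values were 2.18, 1.47, 1.99 and 4.93 CPM against 0.558, 2.40, 0.900 and 0.779 CPM, and the groups overlapped at both times. The log2 changes were -0.94 ± 0.41 and -0.74 ± 0.41 (SE of the limma fit, n = 4 rats). At 2 weeks the change was -0.54 without rat 1 and -1.43 without rat 2, and at 8 weeks it was -0.41 without rat 8 and -1.14 without rat 6. Endothelial markers in the IVD class summed to 12.6 to 94.4 CPM in CON and 1.68 to 10.8 CPM in LDP at 2 weeks. At 8 weeks they summed to 3.23 to 8.76 CPM and 0.651 to 1.71 CPM. They were thus lower in LDP at both times, whereas Bmp4 was higher in LDP in rats 2 and 6. Outer annulus markers summed to 8681 to 15017 CPM and 6663 to 13307 CPM at 2 weeks, and to 2388 to 4268 CPM and 1012 to 2751 CPM at 8 weeks. Their part in the Bmp4 difference was not tested. Within OAF cells Bmp4 was lower in 3 of 4 rats, by 0.98 ± 0.43 on the log2 scale (SE, n = 4 rats), and by 0.89 ± 0.38 without the OAF cells bearing mural markers, which were more frequent in LDP as given below. Without OAF cells with a UMI of the Schwann cell markers Mbp or Sox10, also higher in LDP, it was lower by 0.95 ± 0.44, and without both kinds of cells by 0.85 ± 0.39, each in 3 of 4 rats. The median gene also lay below 0 in these contrasts, by 0.08 at 2 weeks and 0.16 at 8 weeks on the log2 scale. With DESeq2 size factors that median was -0.001 at 2 weeks and -0.004 at 8 weeks.

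**Figure D3:**
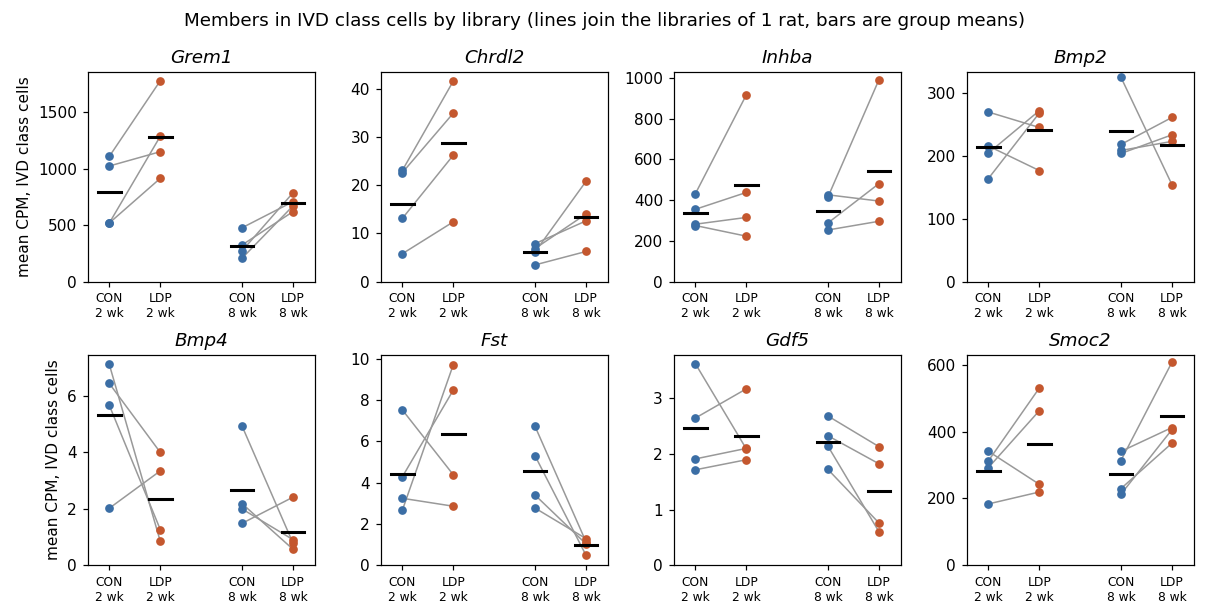
Mean CPM of the 8 genes in IVD class cells (vertical axes, from 0) in each library; grey lines join both libraries from 1 rat and black bars are means of 4. Grem1 and Chrdl2 were higher in LDP in 8 of 8 rats, and Fst was lower in LDP in 4 of 4 at 8 weeks.

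Fst, the activin antagonist gene, was at 3.24, 2.65, 7.52 and 4.27 CPM in IVD cells of CON and at 2.85, 9.71, 4.38 and 8.48 CPM in those of LDP at 2 weeks, higher in LDP in 2 of 4 rats. Over all cells of the library Fst at 2 weeks was at 10.6 to 18.5 CPM in CON and 3.22 to 10.0 CPM in LDP. It was lower in LDP in 4 of 4 rats without overlap, and the share of genes with this pattern over all cells was not counted. The log2 change was -0.89 there against 0.40 in IVD cells, which ran from 0.01 to 0.75 with 1 rat left out. In OAF cells at 2 weeks Fst was at 40.7, 51.8, 41.3 and 51.5 CPM in LDP, above the 13.2 to 19.5 CPM of CON without overlap. This was a log2 change of 1.51 ± 0.13 (SE, n = 4 rats). Of 11694 genes in OAF cells, 3.46% were higher in LDP without overlap and 7.33% were higher in 4 of 4 rats. In NP cells, where Fst was lower in 4 of 4 rats, 10.3% of genes were. The mural markers, however, summed to 492 to 789 CPM in OAF cells of LDP and to 10.6 to 36.4 CPM in OAF cells of CON. Of the Schwann cell markers, Mbp was at 16.7 to 98.7 CPM in OAF cells of LDP and 0 to 3.04 CPM in those of CON, and Sox10 at 2.89 to 13.6 CPM and 0 to 0.119 CPM. The bone markers Bglap, Ibsp, Sp7, Alpl and Dmp1, of which 4 were listed, summed to 451 to 3506 CPM and 151 to 2177 CPM, and their part in the Fst change was not tested. When OAF cells with a UMI of any of the 5 mural marker genes were left out, which kept 87.2% to 89.3% of LDP OAF cells and 93.7% to 95.4% of CON OAF cells, Fst was at 15.6, 25.8, 21.2 and 15.3 CPM in LDP and at 14.9, 12.4, 14.97 and 16.96 CPM in CON. The groups then overlapped, the log2 change was 0.35 ± 0.25 (SE, n = 4 rats) and LDP was higher in 3 of 4 rats. Without OAF cells with a UMI of Mbp or Sox10 the change was 1.47 ± 0.15, higher in 4 of 4 rats with no overlap, and without cells bearing any of these and the mural markers it was 0.14 ± 0.32, higher in 2 of 4. Over the IVD class without the cells bearing mural markers only, the log2 change was -0.26 ± 0.36, and LDP was higher in 1 of 4.

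Cells with UMIs of at least 2 of the 5 mural markers held Fst at 75.0 to 573 CPM in CON and 154 to 330 CPM in LDP at 2 weeks, whatever their class, against 1.45 to 6.75 CPM in the remaining cells of the same libraries. They were 2.39% to 5.98% of CON cells and 1.10% to 2.02% of LDP cells. In CON 34.9% to 86.4% of them were in the unnamed class and 1.05% to 2.49% in OAF, and in LDP 2.97% to 10.2% were in the unnamed class and 38.6% to 63.1% in OAF. This cut was chosen after the marker levels had been seen.

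**Figure D4:**
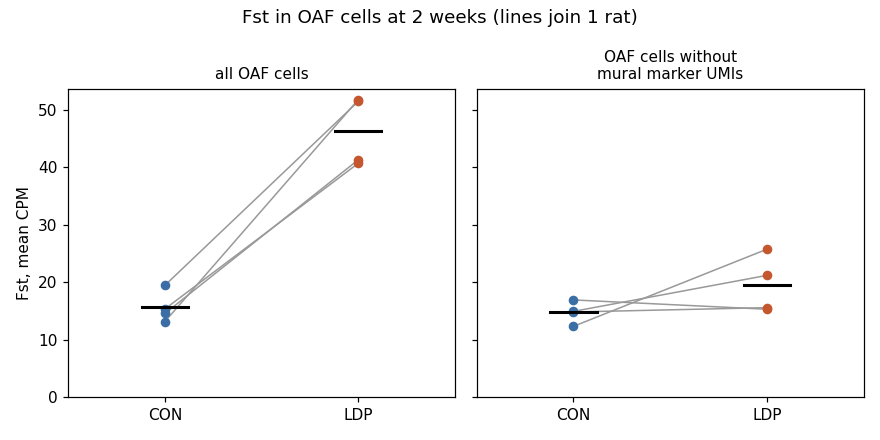
Fst as mean CPM (vertical axis, from 0) in OAF cells at 2 weeks, with all OAF cells on the left and OAF cells without a UMI of the mural markers on the right; lines join the libraries of a rat and bars are means of 4. LDP was higher in 4 of 4 rats with all cells and in 3 of 4, with overlapping groups, without the marker-bearing cells.

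At 8 weeks Fst in IVD cells was at 5.30, 3.40, 6.73 and 2.76 CPM in CON and at 0.476, 1.02, 1.13 and 1.28 CPM in LDP, with no overlap, which held for 11.4% of genes in this direction. The log2 change was -1.45 ± 0.34 (SE of the limma fit, n = 4 rats). Without the cells bearing mural markers the means were 2.86 CPM in CON and 1.01 CPM in LDP, a log2 change of -0.92 ± 0.29 (SE over the 4 rats), lower in 4 of 4 rats. Over all cells of the library the limma change was -0.64, lower in 3 of 4 rats, and the groups overlapped. Of the Fst UMIs at 8 weeks IVD cells held 77.3% in CON and 37.7% in LDP on average. In LDP the endothelial class, not named in CON, held 29.2%, and myeloid cells held 20.5% against 1.81% in CON. Outer annulus markers were also lower in LDP at 8 weeks, as given above, and their part was not tested.

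The genes were not chosen on the comparison of 8 with 2 weeks, made over 8 libraries of different rats in CON and in LDP. It uses the same libraries whose levels served to choose them, however, so its adjusted p for the 8 genes are not independent of that choice. Time after surgery, the age of the rats, the batch and the naming of classes cannot be told apart in it. In CON, limma called 18.9% of 11224 genes at an adjusted p under 0.05, 7.33% as higher and 11.5% as lower, and of the 8 genes only Grem1, as lower. In LDP it called 4.32% of 10993 genes, 1.07% as higher and 3.25% as lower, and of the 8 genes Grem1 and Fst, both as lower.

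Grem1 fell by 1.28 on the log2 scale in CON (SE 0.30, limma adjusted p = 0.018), from 792 ± 317 CPM to 320 ± 115 CPM (SD, n = 4). All 4 libraries at 8 weeks lay below all 4 at 2 weeks, and the share of all genes with this pattern was not counted. Over the other settings and with any 1 library left out the adjusted p of Grem1 in CON stayed between 0.013 and 0.048. In the IVD class of CON the disc markers Acan, Col2a1, Sox9, Comp and Fmod summed to 19557 to 28739 CPM at 2 weeks and 9031 to 13591 CPM at 8 weeks, and the outer annulus markers to 8681 to 15017 CPM and 2388 to 4268 CPM, neither with overlap. In LDP the disc markers were at 17210 to 27266 CPM and 9290 to 11423 CPM. Their part in the changes over time was not tested. In LDP it fell by 0.84 (SE 0.19, limma adjusted p = 0.042), from 1281 ± 364 CPM to 696 ± 70.1 CPM (SD, n = 4). The LDP call was near the threshold: with 1 library left out the change stayed between -0.99 and -0.67, and the call was lost without LDP1, LDP2, LDP5, LDP6, LDP7 or LDP8, with limma adjusted p between 0.067 and 0.118. It was also lost with all cells of the library, with CPM of pooled cells and with edgeR, at adjusted p of 0.25, 0.053 and 0.072.

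Fst fell by 1.79 in LDP (SE 0.32, limma adjusted p = 0.017), from 6.35 ± 3.27 CPM to 0.978 ± 0.351 CPM (SD, n = 4), and was called with each library left out in turn. In LDP at 2 weeks OAF cells held 85.2% of the Fst UMIs of the IVD class, and outer annulus markers in the class were at 6663 to 13307 CPM at 2 weeks and 1012 to 2751 CPM at 8 weeks. Their part in the change was not tested. Over all cells of the library it fell by 1.10 with an adjusted p of 0.22. Without cells bearing mural markers the LDP means were 2.86 CPM at 2 weeks and 1.01 CPM at 8 weeks. In CON its IVD class change was 0.05 ± 0.29 (SE, limma adjusted p = 0.91), whereas with all cells of the library it was -1.36 and passed the threshold (limma adjusted p = 0.016).

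Chrdl2 had log2 changes of -1.15 ± 0.37 in CON (SE, limma adjusted p = 0.054) and -1.03 ± 0.40 in LDP (limma adjusted p = 0.16). Bmp4 had -0.78 ± 0.34 in CON and -0.58 ± 0.36 in LDP, with limma adjusted p of 0.13 and 0.36. Inhba, Bmp2, Smoc2 and Gdf5 had changes between -0.56 and 0.38, and none passed the threshold. Whether the CON and LDP changes differed from each other was not tested.

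**Figure D5:**
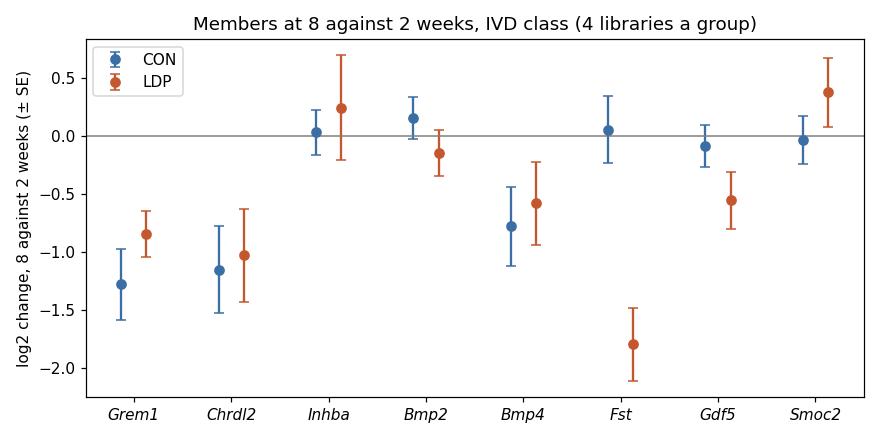
Log2 change of the 8 genes in IVD class cells at 8 against 2 weeks (vertical axis, limma on log2(mean CPM + 1)) in CON (blue) and LDP (orange); error bars are SE, with 4 libraries at each time. Grem1 passed the threshold in both and Fst in LDP.

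Calls in the wider pathway were made over time and not between LDP and CON. A list of 84 other genes of BMP and activin signalling was used, of which 62 were listed in every library. In LDP against CON, 0 of the 52 tested genes passed limma's threshold at 2 weeks and 0 of 52 at 8 weeks, where 8 (15.4%) and 19 (36.5%) had an unadjusted p under 0.05, beside 11.7% and 20.8% of all genes. edgeR also called 0 of them at each time, and DESeq2 called 0 at 2 weeks and 1 higher and 2 lower at 8 weeks. The background was low as well, with 0.179% and 0.269% of 11150 genes called (0.135% higher and 0.0448% lower at 2 weeks, 0.117% and 0.152% at 8 weeks). The median log2 change of the list was -0.23 at 2 weeks and -0.35 at 8 weeks, beside -0.08 and -0.16 over all genes.

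In CON at 8 against 2 weeks, 5 of 52 rose, 9 fell and 38 did not pass, 26.9% called beside 18.9% of all genes. The disc and outer annulus markers that were lower at 8 weeks are given with Grem1, and their part in these calls was not tested. Of 9 target genes 4 rose and 0 fell: Id1 and Id2, inhibitors of DNA binding that BMP signals induce, by 1.25 ± 0.24 and 0.57 ± 0.11, Smad7, the inhibitory SMAD, by 0.86 ± 0.16, and Runx2, an osteoblast transcription factor, by 1.04 ± 0.22 (SE, limma adjusted p from 0.0073 to 0.012). Id1 stood at 41.1 ± 5.21 CPM at 2 weeks and 105 ± 47.9 CPM at 8 weeks (SD, n = 4). Among antagonist genes 3 of 12 fell and 0 rose, with Fstl1, a follistatin-like gene, at -1.36 ± 0.11 and Smoc1, the relative of Smoc2, at -1.14 ± 0.15 (SE, limma adjusted p = 0.00063 and 0.0018). Of the ligand genes, Gdf6 rose by 1.07 ± 0.33 and Gdf15 fell by 0.99 ± 0.30, both close to the threshold (limma adjusted p = 0.046 and 0.043). The Gdf6 call was lost in 6 of 8 other settings and in 6 of 8 fits with 1 library left out (all but CON2 and CON5), with adjusted p up to 0.112. The Gdf15 call was lost in 2 of 8 settings and in 6 of 8 such fits (all but CON4 and CON5), up to 0.104. The receptor gene Acvrl1 fell by 0.87 ± 0.12.

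In LDP, 2 of 53 rose and 4 fell, 11.3% beside 4.32% of all genes. Id1 and Id2 rose by 1.25 ± 0.23 and 0.73 ± 0.15, and Fstl1 fell by 1.77 ± 0.24 (SE, limma adjusted p = 0.017, 0.025 and 0.0074). Sostdc1, a secreted BMP antagonist gene, fell by 1.94 ± 0.26 in IVD cells, from 1.81 to 5.24 CPM in the 4 libraries at 2 weeks to at most 0.0939 CPM at 8 weeks. Over all cells of the library its change was 0.17, and LDP6 alone held it at 99.4 CPM. Gdf10 and Acvrl1 also fell, by 0.95 and 0.76. Several of these LDP calls were near the threshold. With 1 library left out, Fstl1 and Sostdc1 were called in 8 of 8 fits, but Id1 was lost without LDP2, LDP3, LDP6 or LDP7 (adjusted p up to 0.059) and Id2 without any library but LDP4 and LDP5 (up to 0.089). Acvrl1 was called in 1 of 8 such fits (up to 0.095) and Gdf10 in 2 of 7 (up to 0.123). With all cells of the library none of these 6 genes was called. The most abundant genes of each role did not pass in either time contrast, apart from Bmp6 among the ligands, which fell by 0.54 ± 0.13 in CON, and Tsc22d1 and Id4 led the targets. Htra1, at 2243 CPM over the 16 libraries, and Twsg1, at 410 CPM, led the antagonist list, Tgfbr3 and Acvr2a the receptors, and Smurf2 and Skil the transducers.

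Detection of Grem1 was set against that of the other genes within the same cells. Among NP and IAF cells at 1000 UMIs, 3.91% of cells with a Grem1 UMI had a Chrdl2 UMI against 0.843% of cells without, and the share was higher in 8 of 8 libraries. For Smoc2 the shares were 33.7% and 15.7%, and for Inhba 27.6% and 15.9%, again higher in 8 of 8. This was not seen for Gdf5 and Bmp2. A Gdf5 UMI was found in 0.244% of cells with a Grem1 UMI and in 0.297% of those without, higher with Grem1 in 1 of 8 libraries. Only 4 of 8 libraries had at least 20 cells with a Gdf5 UMI at this depth, so little can be read from Gdf5. For Bmp2, 16.6% of cells with a Grem1 UMI and 18.2% of those without had a Bmp2 UMI, and the share was higher with Grem1 in 3 of 8 libraries. Among cells with a Chrdl2 UMI the Bmp2 share was lower in 8 of 8, at 12.5% against 17.5%.

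Over the 24 means of 8 libraries and 3 subclusters, which share libraries and depth, Spearman's rho was 0.93 between Grem1 and Chrdl2, 0.91 between Grem1 and Smoc2 and 0.87 between Bmp4 and Fst, and -0.79 between Grem1 and Fst. These means hold the split between OAF and the other subclusters that helped to choose the genes. That split alone pushes rho up within a set and down between sets, so the values are description only. Of 8306 other genes, those most like Grem1 were Ly6l, Pygl and Nxph4 (rho 0.97, 0.97 and 0.95), and those most like Chrdl2 were Pglyrp1, Ly6l and Pdrg1 (0.97, 0.95 and 0.94). Igfbp3, Chodl and Rarres2 were most like Bmp4 (0.95, 0.94 and 0.94), and Itgb4, Rgs4 and Kitlg most like Fst (0.96, 0.95 and 0.94). For Smoc2 they included C1qbp and Mrpl46 (0.95 and 0.95), for Bmp2 Eno1, Prss46 and Wwp2 (0.94, 0.91 and 0.91), and for Inhba Ddx39b, Mtus1 and Nsun2 (0.92, 0.90 and 0.90). Gdf5 had lower values, with Aldh1a3, Rnf34 and Gpat3 at 0.91, 0.88 and 0.87.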

How the data were processed

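Cells from 16 libraries (4 each of CON and LDP at 2 and 8 weeks) were profiled with 10x Genomics 3′ chemistry. The authors filtered cells and deposited, per the file headers and their methods, log2 values of CPM + 1 per gene and cell, with the estimated count of UMIs per cell and class labels, and their processing notes name Partek and rn6. Parameters of alignment and counting are not given in the sources used here. The number of barcodes equals the study's count in 3 of 4 groups and is slightly lower in LDP at 8 weeks. Doublet treatment was not stated and no caller was run here. Subcluster numbers differ between CON and LDP and were matched to names by a share of cells that the study gives for each.

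The deposited log2 values were turned back into CPM and, times the cell total, into whole counts (99.4% of values within 0.02). Mean CPM per library was taken over cells of a class with at least 20 cells. Shares were also computed after thinning each cell to 1000 UMIs, which left out 2067 cells. limma 3.58.1 was fitted to log2(mean CPM + 1) of IVD class cells, for genes with a mean of at least 1 CPM. Rat was a block for LDP against CON, and the threshold was 0.05 after Benjamini-Hochberg adjustment. For LDP against CON the SE of the limma fit pools the spread of all 8 rats, whereas other SEs of such changes are over the rats of 1 time. Simulated data were used for LDP against CON only, without changes of cell make-up, and not for the comparisons over time. edgeR 4.0.16 and DESeq2 1.42.0 on summed counts were alternatives. Leaving out cells with mural markers, or with Mbp or Sox10, and exchanging the names NP and IAF in LDP were alternatives chosen after seeing the data. The pairing comes from the animal: the deviations of a rat's own pair of libraries from their group means correlated between -0.19 and 0.47. They were below 0 in rats 1 and 4, and in rats 1, 4 and 7 another rat's LDP library of the same time was more alike. P-values of LDP against CON set the mean within-rat change against its spread, pooled over all 8 rats and both times. Those over time set the change against the spread between rats. The genes, lists and tests were chosen with earlier results of these data known. Named pathway genes were up to 5 with the largest change past the threshold per contrast and direction, and the 2 most abundant of each role; the 3 most similar genes are given per member, except 1 that is not reported here.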

Additional observations from a re-analysis of the deposited data

Results flagged for a closer look

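Of 80 groups of 4 libraries checked for a library far from the others in the level of 1 of the 8 genes, 4 were noted, and chance gives about 1 in 20 such groups. Bmp2 in IVD cells was at 324 CPM in CON5, against 203 to 218 CPM in the other CON libraries at 8 weeks. Gdf5 in IVD cells was at 3.17 CPM in LDP3, against 1.90 to 2.10 CPM in the other LDP libraries at 2 weeks. Fst in NP cells was at 1.82 CPM in CON4, against 0.974 to 1.07 CPM, and Smoc2 in NP cells was lowest in CON3, at 216 CPM against 369 to 396 CPM.

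The Fst change at 2 weeks took opposite directions in different subclusters: it was -0.47 on the log2 scale in NP cells, lower in 4 of 4 rats, and 1.51 in OAF cells, higher in 4 of 4. If the names NP and IAF were exchanged in LDP, the change would be -0.20 from CON NP, lower in 3 of 4 rats, and -1.38 from CON IAF, lower in 4 of 4. The difference between subclusters was not tested. The OAF value was 0.35, higher in 3 of 4 rats, without cells bearing mural markers and 0.14, higher in 2 of 4, when cells with Mbp or Sox10 were left out as well, and the NP levels were at or below 1.82 CPM.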

How the results depend on the processing

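Genes called in LDP against CON numbered 20 at 2 weeks and 30 at 8 weeks. With all cells of the library they were 0 and 1, with DESeq2 282 and 573, at 8 weeks with a pseudocount of 0.1 they were 80, and with 1 rat left out 0 to 7 and 1 to 567, the latter without rat 4. In the fit without the rat as a replicate block they were 5 and 37. At 8 against 2 weeks 2119 genes were called in CON (1109, without CON3, to 2425 with 1 library left out) and 475 in LDP (156 to 1507, the latter without LDP4). In LDP these were 21 with all cells, 1354 with DESeq2 and 306 at a mean of at least 5 CPM. Of LDP calls over time 118 were higher and 357 lower with limma, 155 and 284 with edgeR, and 649 and 705 with DESeq2. At 8 weeks the split was 13 and 17 with limma, 19 and 10 with edgeR and 289 and 284 with DESeq2, and at 2 weeks 15 and 5 with limma and 179 and 103 with DESeq2.

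Pathway genes called in LDP against CON at 8 weeks were 0, with DESeq2 1 higher and 2 lower, and with 1 rat left out 0 to 1 higher and 0 to 8 lower, the highest without rat 4. Over time in CON, 5 higher and 9 lower became 4 to 8 and 5 to 8 with 1 library left out. In LDP, 2 higher and 4 lower became 0 to 2 and 2 to 9. With all cells they were 0 and 0, and lower calls were 2 with pooled CPM, 8 with DESeq2 and 1 at 5 CPM. Fst in CON over time turned to -1.36 with all cells, past the threshold, and Sostdc1 in LDP to 0.17. The causes were not tested. The low levels of Gdf5, Fst and Bmp4 in IVD cells limit what these depths can show.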
